A study of Mus musculus with 12 samples.

Results

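The cytosolic ribosomal protein genes encode the protein part of the ribosome that translates messenger RNA outside the mitochondria. They were taken from 12 one-colour Affymetrix arrays as every probe set whose annotation gave 1 gene symbol and whose symbol was Rpl or Rps followed by a digit, Rpsa, Rplp0, Rplp1 or Rplp2, with the Rps6k kinases, the Rps19bp gene and pseudogene symbols left out. This gave 49 genes on 105 probe sets, of 18193 genes and 45037 probe sets in all, and each gene was read from the brightest of its probe sets. Another 31 ribosomal protein symbols, among them Rpl3, Rpl5, Rpl10 and Rplp1, occur only on probe sets that list several symbols and were not members.

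All cells were Ebf1-/- pre-pro-B cells of strain C57BL/6, progenitors in which B lymphopoiesis stops for lack of the transcription factor EBF1. They were grown on OP9 stromal cells, a line from mouse bone marrow, in 4% serum with SCF and Flt3L at 10 ng/ml each and IL-7 at 5 ng/ml. They received the MigR1 control retrovirus with GFP alone, the same vector with EBF1, or the same vector with PAX5, and GFP-positive cells were sorted after 2 days, so EBF1 or PAX5 was expressed from a virus in cells that, controls included, lack Ebf1. The series is about chromatin organisation as pre-pro-B cells become pro-B cells. The arrays form 4 groups of 3: control and EBF1 in set 1, control and PAX5 in set 2.

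A ribosome has a small subunit, which reads the messenger RNA, and a large subunit, which joins amino acids, and each holds one copy of most ribosomal proteins, so these genes are expressed together at high level in growing cells. Their transcripts typically begin with a run of pyrimidines, the terminal oligopyrimidine tract, through which the kinase mTORC1 and the RNA-binding protein Larp1 regulate their translation. The transcription factor Myc is known to raise the synthesis of ribosomal proteins and of the factors that assemble ribosomes, and defects of single ribosomal proteins impair blood cell formation.

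The start sites of these genes are shown because a run of pyrimidines at the start is the known mark of this family. RefSeq promoter windows of build GRCm38.p6 were found for 43 of the 49 genes, and each line runs 5′ to 3′ from 20 bases before the annotated start to 20 bases after it, on the strand of the gene. Capitals mark the longest unbroken run of C and T of 6 or more bases that overlaps the stretch from 10 bases before to 15 bases after the start.
Rpl7a: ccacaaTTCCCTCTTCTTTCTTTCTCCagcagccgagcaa
Rpl27a: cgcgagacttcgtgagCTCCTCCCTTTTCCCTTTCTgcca
Rpl35: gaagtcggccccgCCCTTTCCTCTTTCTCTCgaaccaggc
Rpl13a: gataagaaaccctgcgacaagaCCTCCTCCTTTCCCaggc
Rplp2: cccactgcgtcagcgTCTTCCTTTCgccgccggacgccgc
Rps18: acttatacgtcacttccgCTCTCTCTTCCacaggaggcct
Rps6: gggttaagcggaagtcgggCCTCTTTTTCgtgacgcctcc
The windows lie at Rpl7a chr2:26910787-26910826 (+ strand), Rpl27a chr7:109519175-109519214 (+ strand), Rpl35 chr2:39005112-39005151 (- strand), Rpl13a chr7:45128726-45128765 (- strand), Rplp2 chr7:141447631-141447670 (+ strand), Rps18 chr17:33955646-33955685 (- strand), Rps6 chr4:86857348-86857387 (- strand). Some genes had no run of that length, for example the following, at Rps3 chr7:99483690-99483729 (- strand), Rps3a1 chr3:86142649-86142688 (- strand), Rpl7l1 chr17:46782637-46782676 (- strand).
Rps3: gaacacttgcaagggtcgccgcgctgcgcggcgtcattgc
Rps3a1: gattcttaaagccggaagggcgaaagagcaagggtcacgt
Rpl7l1: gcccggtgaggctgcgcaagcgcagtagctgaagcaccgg
Rpl7a held the longest run shown, 21 bases, followed by Rpl27a with 20 and Rpl35 with 18, while Rps3, Rps3a1 and Rpl7l1 reached 2 bases each. Such a run was found for 29 of the 43 genes (67.4%), against 9935 of 27025 (36.8%) of all genes with a window. The motif CCGGAAG, searched on both strands over the 300 bases of each window, was found for 21 of the 43 (48.8%) and for 9.93% of all genes. Its reverse strand, CTTCCGG, can share bases with a pyrimidine run. The motif TATAAA was found for 6 of the 43 and for 15.7% of all genes, and TCCCNNGGGA, a palindrome, for 0 of the 43 and 1.06% of all. These are matches of letters in annotated windows and were not tested against the array values. The run was present in 65.6% of the 32 genes with a window that read brightly on the arrays and in 72.7% of the other 11.

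The deposited values are intensities on a linear scale, with medians between 55.1 and 68.9 over the 12 arrays. Controls with the same number in both sets differed far less than controls with different numbers (the log2 difference had a robust SD of 0.039 to 0.094 for the former and 0.287 to 0.374 for the latter) and were counted as 3 control samples. PAX5 arrays 2 and 3 (0.077) were counted as 1, which left 3 EBF1 and 2 PAX5 samples. It is not stated in the labels if replicates were separate cultures or animals, and a p-value here speaks of the spread over these arrays, which may be technical. Precision is limited by the few arrays. Of the markers of committed B cells, 4 of the 6 measured rose with EBF1 and 2 with PAX5. The 7 markers listed include Pax5, the gene that the PAX5 virus carries, so a rise of Pax5 itself could come from the virus. Of the 14 stroma markers, 0 passed in either comparison, but their median deviation from the controls was 0.61, -0.09 and 2.06 on the log2 scale in EBF1 arrays 1, 2 and 3, beside 0.60, -0.29 and -0.21 in the controls of set 1. The members' median deviation on the EBF1 arrays was -0.00019, -0.020 and -0.0058, the median of 8 immediate-early genes was 1.36 on PAX5 array 1, where the members stood at 0.0011, and the part of either in the members' readings was not tested.

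No ribosomal protein gene passed the test in cells given EBF1 or PAX5, and the bright majority of them had estimated changes of at most 1.04-fold. Changes are differences of log2(intensity + 16) from the controls of the same set, tested with limma over all 18193 genes with Benjamini-Hochberg adjustment, and a gene was called at an adjusted p under 0.05. With EBF1, limma called 0 of the 49 genes, against 0.22% of all genes, and 0 also had an unadjusted p under 0.05, against 11.6% of all genes. With PAX5, limma called 0 of 49, against 0.874% of all genes, and 0 had an unadjusted p under 0.05, against 9.45%. The lowest adjusted p of a member was 0.582 with EBF1 and 0.549 with PAX5. The members' median log2 change was -0.0073 with EBF1, where that of all genes was 0.014, and -0.017 with PAX5, where that of all genes was -0.0083. In bulk samples such as these, fewer cells of a type and less RNA per cell cannot be told apart, and the controls of both comparisons were averaged as 1 set of samples, so the comparisons share them.

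**Figure D1:**
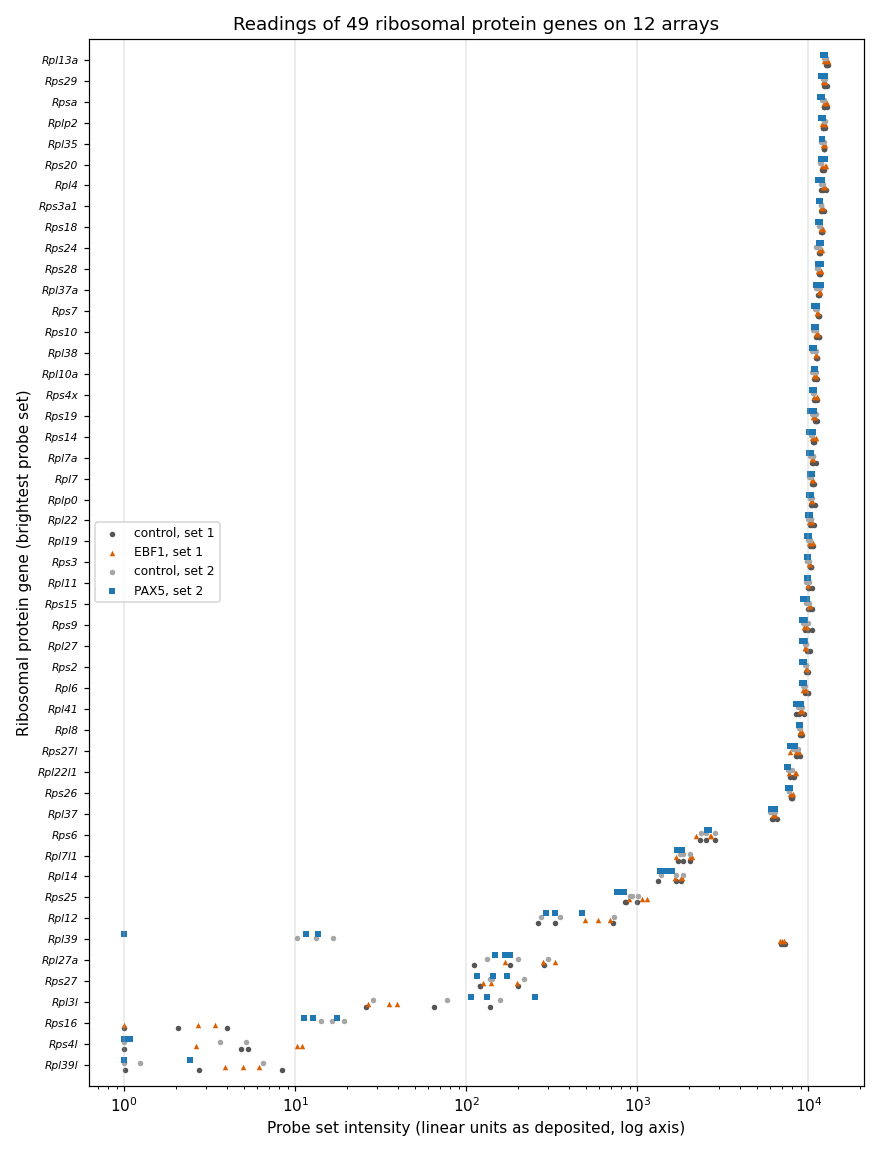
Intensity of the brightest probe set of each of the 49 genes (log axis, linear units as deposited) on the 12 arrays, 1 point per array, coloured by group and ordered by mean. The 37 upper genes lie between 6005 and 13078 with groups on top of each other, and Rpl39 is the gene with bright points in set 1 and dim points in set 2. The order reflects probes as well as transcripts.

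Most members were read near the top of the scale. Of the 49, 37 had a mean log2(intensity + 16) of 12 or more, with readings from 6005 to 13078. These readings were 44.5% to 95.1% of the highest intensity on the same array, with a median of 79.0%. Within the control arrays of set 1 the SD of such a member was 0.028 in log2 at the median. With EBF1 the changes of the 37 ran from -0.057 to 0.027, and with PAX5 from -0.062 to 0.046, which is at most 1.04-fold in either direction. The 95% intervals reached at most 1.23-fold lower and 1.19-fold higher with EBF1, and 1.25-fold lower and 1.23-fold higher with PAX5. The spread assumed for these genes includes the wider spread of dim genes. With an intensity-dependent prior (limma's trend option, an alternative chosen after seeing the data) the intervals reached at most 1.14-fold lower and 1.11-fold higher with EBF1 and 1.16-fold lower and 1.11-fold higher with PAX5. The 366 other genes at that level had a wider range, from -1.84 (Mycn) to 0.55 with EBF1 and from -0.59 to 0.65 with PAX5. Limma called 0 of them in either comparison. At an unadjusted p under 0.05 there were 22 with EBF1, against 11.6% of all genes, and 14 with PAX5, against 9.45%. The median residual SD was 0.024 for the bright members and 0.082 for all 403 genes at that level. Whether readings close to the top of the scale narrowed the members' differences was not tested.

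**Figure D2:**
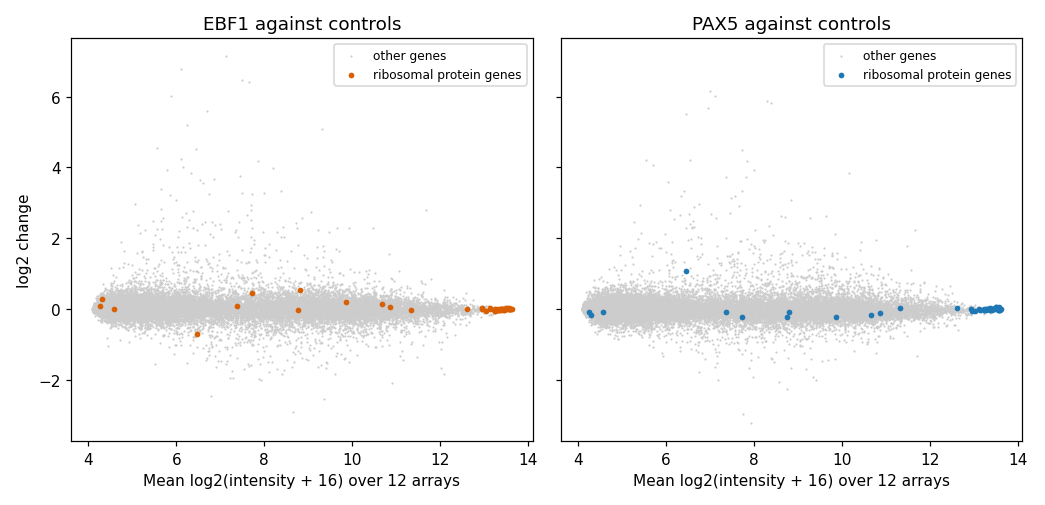
Log2 change of intensity + 16 (y) against the mean log2(intensity + 16) over the 12 arrays (x) for EBF1 and PAX5, with ribosomal protein genes in colour and all other genes in grey. The 37 bright members lie along 0 at the right edge, between -0.062 and 0.046, and the member farthest from 0 is Rpl3l, at -0.70 with EBF1 and 1.08 with PAX5.

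Among 20 proteins of the large subunit, limma called 0 in either comparison, with a median change of -0.0085 for EBF1 and -0.016 for PAX5. Rpl13a, which besides its place in the ribosome takes part in silencing inflammatory transcripts, had one of the highest readings. It read 12770, 12742 and 12977 in the controls of set 1 and 12647, 12419 and 13078 with EBF1. It read 12708, 12454 and 12358 in the controls of set 2 and 12509, 12497 and 12141 with PAX5. On this probe set the groups overlapped in both sets, and the changes were -0.013 (SE 0.096) and -0.011 (SE 0.107). On its other probe sets the changes ran from -0.058 to 0.0089 with EBF1 and from -0.058 to -0.014 with PAX5. On 1 of them all EBF1 and all PAX5 arrays lay below their controls, and on the rest the groups overlapped.

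Rpl11, which together with Rpl5 and 5S ribosomal RNA binds Mdm2 and so ties ribosome assembly to p53, behaved like the brightest probe set of Rpl13a. Its controls read 10055, 9953 and 10514 in set 1, beside 10009, 9944 and 9955 with EBF1. Its controls in set 2 read 9849, 9714 and 10152, beside 9935, 9907 and 9783 with PAX5. The arrays overlapped in both sets, with changes of -0.029 and -0.0020 (limma adjusted p = 0.95 and 1).

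For a few large-subunit genes the arrays of a factor lay apart from the controls by a small margin, without a call. On its brightest probe set, Rpl27 had all 3 EBF1 arrays below the controls of set 1, and all 3 PAX5 arrays below theirs. The changes were -0.049 and -0.038 in log2 (limma adjusted p = 0.9 and 0.963). Its other probe sets, also bright, had changes of 0.017 and 0.052 with EBF1 and of 0.044 and 0.072 with PAX5, the other direction. On both of them all 3 PAX5 arrays lay above the controls, and the EBF1 arrays overlapped theirs. Rpl37a, a small zinc-binding protein of the large subunit, had its EBF1 arrays at 11742, 11608 and 11620, just above its controls at 11539, 11427 and 11576, a change of 0.018. Over all 49 genes, the EBF1 arrays did not overlap the controls and lay higher for 1 gene, Rpl37a, against 7.67% of all genes, and lay lower for 2, Rpl27 and Rps19, against 6.76%. The PAX5 arrays lay higher for 1 gene, Rps24, against 9.34% of all genes, and lower for 7, against 8.95%: Rpl22l1, Rpl27, Rplp2, Rps2, Rps25, Rps3a1 and Rpsa. Of these 3 PAX5 arrays, 2 count as 1 sample.

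For some genes the single-symbol probe set was dim, while probe sets that list the gene with pseudogenes or predicted genes were bright. Of the 12 members that were not bright, 8 were listed on such bright probe sets, 20 in all, whose changes ran from -0.059 to 0.037 with EBF1 and from -0.065 to 0.067 with PAX5. Rpl12, which forms the base of the stalk that recruits elongation factors, read 264, 722 and 329 in the controls of set 1 and 588, 689 and 496 with EBF1. In set 2 it read 272, 732 and 352 in the controls and 474, 331 and 291 with PAX5. Control array 2 was the highest of its set in both, the groups overlapped, and the changes were 0.54 (95% interval -0.23 to 1.31) and -0.10 (-0.96 to 0.76).
Rpl27a read 181, 284 and 111 in the controls of set 1 and 281, 329 and 168 with EBF1, a change of 0.45 (SE 0.314, limma adjusted p = 0.64). It read 201, 301 and 132 in the controls of set 2 and 179, 168 and 147 with PAX5, a change of -0.24 (SE 0.351, adjusted p = 0.916). Without control replicate 2 the PAX5 change was 0.30 for Rpl12 and 0.036 for Rpl27a, so its direction rests on that control. The EBF1 change of Rpl12 ran from 0.26 without control replicate 1 to 0.96 without control replicate 2, and that of Rpl27a from 0.13 without control replicate 3 to 0.75 without control replicate 2. The 2 bright shared probe sets that list Rpl12 had changes of -0.025 and -0.0034 with EBF1 and -0.039 and -0.032 with PAX5, and the one that lists Rpl27a had -0.031 and -0.020. Rpl14 read between 1321 and 1840 on all 12 arrays, with changes of 0.15 and -0.17, and its 5 bright shared probe sets had changes from 0.020 to 0.037 and from -0.064 to -0.026.

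The stalk of the large subunit, where elongation factors dock, was represented by Rplp0, its anchor, and Rplp2, one of its acidic tips. Rplp0 read 10328, 10516 and 10977 in the controls of set 1 and 10539, 10371 and 10525 with EBF1. It read 10285, 10276 and 10516 in the controls of set 2 and 10348, 10321 and 10067 with PAX5. Both comparisons overlapped, at changes of -0.017 and -0.012. Rplp2 had changes of -0.0082 and -0.033 (limma adjusted p = 0.988 and 0.97), and its PAX5 arrays, at 12157, 12144 and 11902, lay below all 3 controls, the lowest of which read 12276.

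**Figure D3:**
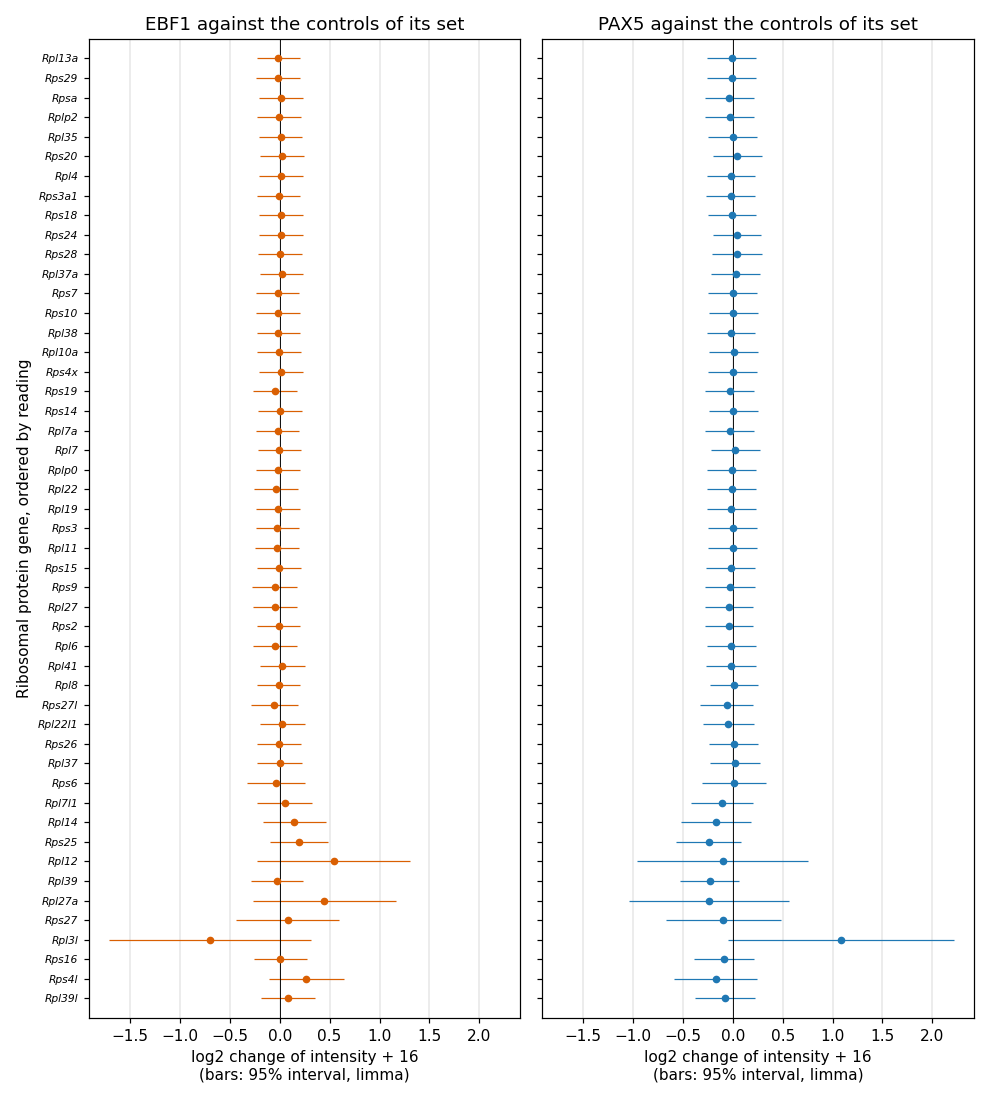
Log2 change of intensity + 16 with EBF1 (left) and PAX5 (right) against the controls of the same set for each of the 49 genes, ordered by mean reading; points are limma estimates from 3 control, 3 EBF1 and 2 PAX5 samples and bars their 95% intervals. Every interval includes 0, and the widest intervals are those of Rpl3l, Rpl12 and Rpl27a.

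Among 21 small-subunit proteins limma called 0 in either comparison, with a median change of -0.0073 for EBF1 and -0.0077 for PAX5. Rps19, the gene most often mutated in Diamond-Blackfan anaemia, an inherited failure of red cell production, read 11248, 11125 and 10994 in the controls of set 1 and 10907, 10746 and 10686 with EBF1. In set 2 the controls read 11024, 10836 and 10528, and the PAX5 arrays 10728, 10581 and 10198. The EBF1 arrays were lower than all their controls and the PAX5 arrays overlapped theirs, and the changes were -0.045 (SE 0.096, limma adjusted p = 0.909) and -0.032 (SE 0.107, adjusted p = 0.971).

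Rps6, the ribosomal substrate of the S6 kinases, read 2845, 2527 and 2334 in the controls of set 1 beside 2678, 2647 and 2190 with EBF1. In set 2 it read 2835, 2527 and 2359 beside 2587, 2629 and 2558 with PAX5. The groups overlapped, with changes of -0.037 and 0.013, and 7 bright probe sets that list Rps6 with a pseudogene had changes from -0.059 to 0.0051 and from -0.065 to 0.030. The level of the transcript carries no information on the phosphorylation of the protein. Rpsa, also known as a laminin receptor, had changes of 0.0088 and -0.034. Rps24, another gene mutated in Diamond-Blackfan anaemia, read 11778, 11584 and 11653 with PAX5, above its controls at 11553, 11482 and 11077, a change of 0.041 that limma did not call (adjusted p = 0.961).

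Rps25, which is not needed for general translation but takes part in initiation at some internal ribosome entry sites, was the small-subunit gene with the widest separation between EBF1 and PAX5. It read 858, 990 and 848 in the controls of set 1 and 1138, 889 and 1068 with EBF1. It read 910, 1004 and 932 in the controls of set 2 and 832, 770 and 759 with PAX5. EBF1 array 2 lay within the range of the controls and the other EBF1 arrays above it, while all PAX5 arrays lay below their controls. The changes were 0.19 (95% interval -0.10 to 0.48) and -0.24 (-0.57 to 0.08). A bright probe set that lists Rps25 with 2 predicted genes had changes of 0.012 and 0.018.

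Whether a gene responded differently to EBF1 and to PAX5 was tested by a contrast within the fit. Limma called 0 of the 49 genes, against 1.94% of all genes, and 3 had an unadjusted p under 0.05, against 17% of all genes, so the share among the members, 3 of 49, was below that background. Those 3 were Rpl3l (EBF1 minus PAX5 -1.79, adjusted p = 0.119), Rps25 (0.44, adjusted p = 0.172) and Rps4l (0.44, adjusted p = 0.271). The median difference was 0.0026 over the members and 0.022 over all genes.

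Several ribosomal proteins have a near-copy that is made in particular tissues or replaces the usual protein in a share of ribosomes. Of 6 such genes measured, limma called 0 in either comparison, and not every probe may separate a paralog from its parent gene. Rpl3l, which stands in for Rpl3 in heart and skeletal muscle, was the member farthest from 0 in both comparisons. It read 138, 25.9 and 64.7 in the controls of set 1 and 35.4, 26.6 and 39.3 with EBF1. It read 156, 28.6 and 77.2 in the controls of set 2 and 252, 133 and 106 with PAX5. Among the controls, array 2 was the lowest and array 1 the highest in both sets, and both factor groups overlapped the controls. The changes were -0.70 (95% interval -1.72 to 0.31) and 1.08 (-0.05 to 2.22). Over the alternatives they ran from -1.17 (without control replicate 2) to -0.23 (without control replicate 1) with EBF1, and from 0.58 (without control replicate 2) to 1.56 (without control replicate 1) with PAX5.

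Rpl22l1, the paralog of Rpl22, read 8094, 8280 and 7825 in the controls of set 1 and 8515, 8381 and 7749 with EBF1. It read 7828, 8016 and 7602 in the controls of set 2 and 7537, 7587 and 7548 with PAX5. The PAX5 arrays lay just below their controls and the EBF1 arrays overlapped theirs, at changes of -0.049 and 0.025. Rpl22 itself, which is needed for the development of αβ T cells, had changes of -0.039 with EBF1 and -0.014 with PAX5 on its brightest probe set. Its dimmest probe set read 2858, 2821 and 2590 in the controls of set 1 and 2167, 2586 and 2161 with EBF1. On it the change was -0.26 with EBF1 and -0.25 with PAX5. Limma called neither (adjusted p = 0.483 and 0.656 over the 34945 single-symbol probe sets).

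Rps27l, a p53-induced copy of Rps27, had changes of -0.057 and -0.062. Rps27 itself, read between 116 and 216 on a dim probe set, had changes of 0.078 and -0.096. A bright probe set that lists Rps27 with Rps27rt had changes of 0.0050 and 0.067. Rpl7l1, which resembles Rpl7, had changes of 0.048 and -0.11 on its brightest probe set, beside -0.0062 and 0.024 for Rpl7. The dimmer probe sets of Rpl7l1 had changes of 0.21 and 0.14 with EBF1, and of 0.11 and 0.040 with PAX5, the other direction. Rpl39l, the testis paralog of Rpl39, read between 1 and 8.35 on all 12 arrays, and Rps4l, an Rps4-like gene, between 1 and 10.9. Readings of 1 recur and have no order among themselves, and the added 16 limits the change that such readings can show.

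Many members have further probe sets, which gave a separate view of the same transcripts. Over all 34945 single-symbol probe sets tested one by one, an alternative chosen after seeing the data, limma called 0 of the members' 105 with EBF1, against 0.146% of all probe sets, and 0 with PAX5, against 0.684%. At an unadjusted p under 0.05 there were 2 with EBF1, against 10.7% of all probe sets, and 0 with PAX5, against 8.85%. These 2 were dim probe sets of Rps9 and Rpl35, genes whose brightest probe sets had changes of -0.051 and 0.0073. The Rps9 probe set read 203, 338 and 264 in the controls of set 1 and 368, 380 and 344 with EBF1, a change of 0.45 (SE 0.179, adjusted p = 0.425). The Rpl35 probe set read 70.8, 91.6 and 43.6 in the controls and 92.0, 114 and 91.6 with EBF1, a change of 0.48 (SE 0.202, adjusted p = 0.448). Both were higher in every EBF1 array than in every control array, for Rpl35 by a margin below the digits given.

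Bright and dim probe sets of the members differed in their medians, though they come in part from different genes. Of the members' 56 other probe sets, the 34 bright ones had a median change of -0.019 with EBF1 and -0.0086 with PAX5, and 10 of them had a change above 0 with EBF1. The 22 that were not bright had medians of 0.21 and -0.093, and 19 of them had a change above 0 with EBF1. Over all genes, 9661 of 18193 had a change above 0 with EBF1. The 12 members whose brightest probe set was not bright had medians of 0.081 and -0.11. Their median deviation from the controls was 0.16, 0.10 and -0.063 on EBF1 arrays 1 to 3 and -0.053, -0.15 and -0.22 on PAX5 arrays 1 to 3, beside 0.0020, 0.12 and -0.12 on the control arrays of set 1. EBF1 arrays 1 and 2 lay near control array 2, and EBF1 array 3 lay between control arrays 1 and 3. The 110 probe sets that list several symbols with a ribosomal protein gene among them were tested among all 45037 probe sets. Limma called 0 of them with EBF1, against 0.0977% of all, and 0 with PAX5, against 0.515%. At an unadjusted p under 0.05 there was 1 with EBF1, against 9.97% of all, and 0 with PAX5, against 8.51%.

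One member was read on different levels in the 2 sets. Rpl39, a small protein lining the exit tunnel of the large subunit, read 7331, 6931 and 7102 in the controls of set 1 and 7162, 6969 and 6865 with EBF1. In set 2 the same probe set read 10.2, 16.6 and 13.2 in the controls and 11.6, 13.5 and 1 with PAX5. The mean offset between the control sets was -7.93 in log2, although over 12889 probe sets these control pairs differed little, as given above. Its cause was not tested. A probe set listing Rpl39 beside Gm32211 read between 10105 and 10890 on all 12 arrays, with changes of 0.024 with EBF1 and 0.030 with PAX5. The change of Rpl39 on its own probe set was -0.025 with EBF1, from bright readings, and -0.23 with PAX5, from readings near the lower end. Over the alternatives the PAX5 change ran from -0.77 to -0.034.

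Of the 49 genes, 1 (Rpl39) had an offset past 1 in log2 between the control sets, against 6.31% of all genes, and 2 had one past 0.5. The second was Rps16, which read 1, 3.96 and 2.06 in the controls of set 1 and 16.4, 14.1 and 19.3 in those of set 2, an offset of 0.83. Probe sets that list Rps16 with a pseudogene read from 9524 to 11709 over the arrays. Of all 105 probe sets, 2 were past 1: that of Rpl39 and a dim one of Rps18, with an offset of -1.10. Among the bright members the offsets ran from -0.060 to 0.013. Both changes are taken within a set, so an offset between sets does not enter them.

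**Figure D4:**
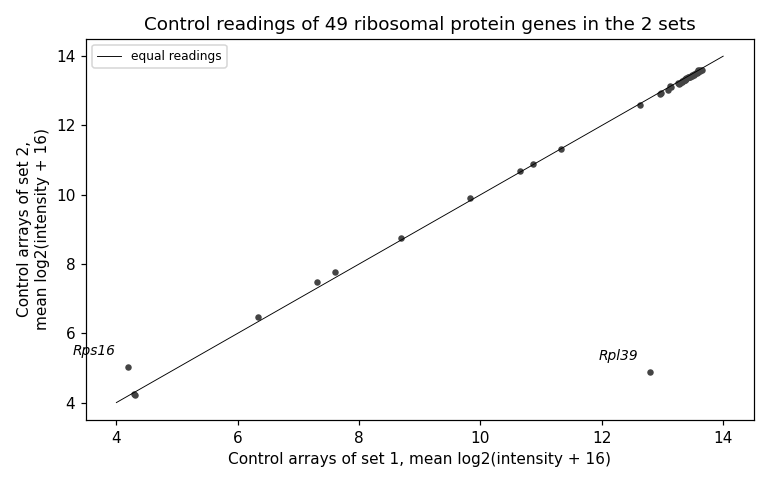
Mean log2(intensity + 16) of the 3 control arrays in set 1 (x) and set 2 (y) for each of the 49 genes, with the line of equal readings. Rpl39 lies far below the line, with an offset of -7.93, Rps16 lies above it by 0.83, and the others follow the line.

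Other parts of the translation machinery were also not called in either comparison. Limma called 0 of 6 elongation factors measured, of 7 listed, with median changes of 0.0085 for EBF1 and -0.013 for PAX5 and 0 at an unadjusted p under 0.05. Eef1a1, which brings aminoacyl-tRNA to the ribosome, read 11046, 10705 and 11684 in the controls of set 1 and 11123, 10990 and 11071 with EBF1. Of 24 initiation factors measured, of 29 listed, 0 were called and 0 had an unadjusted p under 0.05, with medians of 0.021 and -0.044. Of 7 other transcripts with terminal pyrimidine tracts or products bound to ribosomes, such as Tpt1 and Naca, 0 were called and 0 passed unadjusted, with medians of -0.042 and -0.039. The 76 mitochondrial ribosomal proteins, which serve the separate ribosome of mitochondria, gave 0 calls, with medians of 0.11 and -0.093. At an unadjusted p under 0.05 there were 6 with EBF1, against 11.6% of all genes, and 2 with PAX5, against 9.45%. Above 0 lay 62 of the 76 with EBF1, against 9661 of all 18193 genes, and 18 with PAX5, against 8757. All EBF1 arrays lay above the controls for 17, against 7.67% of all genes, and below them for 3, against 6.76%. For the difference between EBF1 and PAX5, limma called 0, against 1.94% of all genes. At an unadjusted p under 0.05 there were 18, all higher, against 17%.

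The factors that assemble ribosomes gave 0 limma calls in either comparison among the 45 measured, of 46 listed, but a median away from that of all genes. With EBF1 their median change was 0.29, beside 0.014 over all genes. Above 0 lay 42 of 45, against 9661 of all 18193 genes. At an unadjusted p under 0.05 there were 9 of the 45, all of them higher, against 11.6% of all genes in either direction. With PAX5 the median was -0.086 and 1 had an unadjusted p under 0.05, against 9.45% of all genes. For the difference between EBF1 and PAX5, limma called 0 of the 45, against 1.94% of all genes. At an unadjusted p under 0.05 there were 16, against 17% of all genes. Polr1a, the largest subunit of RNA polymerase I, had the lowest adjusted p with EBF1, at 0.204, with a change of 0.47. The median deviation of these genes from the controls was 0.25, 0.37 and 0.29 on EBF1 arrays 1 to 3, and -0.28, 0.29 and -0.027 on the control arrays of set 1, so control array 2 lay among the EBF1 arrays. On the same arrays the ribosomal proteins' median deviation stayed between -0.020 and 0.013.

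Regulators of ribosome production were measured as well. Of the 15 genes of translation control by mTORC1 measured, of 16 listed, 0 were called, with medians of 0.069 and -0.040. At an unadjusted p under 0.05 there were 0 with EBF1, against 11.6% of all genes, and 2 with PAX5, against 9.45%. All 9 genes of the Myc network were measured and 0 were called with EBF1 or with PAX5. Of the 9, 4 had an unadjusted p under 0.05 for EBF1 and 0 for PAX5, against the same 11.6% and 9.45% of all genes. For the difference between EBF1 and PAX5, limma called 1 of the 9, Mycl (EBF1 minus PAX5 -1.85, adjusted p = 0.0164), against 1.94% of all genes. Mycn, a member of the Myc family, read 7301, 6064 and 6991 in the controls of set 1 and 3037, 2003 and 1095 with EBF1, a change of -1.84 (limma adjusted p = 0.0866). Myc read 695, 1557 and 1227 in the controls and 2030, 2523 and 1575 with EBF1, a change of 0.86 (adjusted p = 0.298). Every EBF1 array lay below the controls for Mycn and above them for Myc. Over all genes, every EBF1 array lay below the controls for 6.76% and above them for 7.67%.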

How the data were processed

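Total RNA of sorted cells was hybridised to Affymetrix arrays, per the labels' protocols, and 12 arrays were deposited. Equal-numbered controls of the 2 sets may be the same hybridisations, each summarised in both sets, so the 12 may not be separate hybridisations. The authors deposited 1 intensity per probe set and array on a linear scale. Their summary and normalization methods are not given in the sources used here. Of 45037 probe sets, 34945 carried 1 gene symbol in the platform's gene annotation, 932 several and 9160 none, and 34741 of the first matched a GRCm38.p6 gene by Entrez ID. Intensities were used as log2(intensity + 16). Each gene was read from its brightest single-symbol probe set, with no filter on level, and limma 3.58.1 (R 4.3.3, data.table version 1.17.8; lmFit and eBayes) was fitted over all 18193 genes, with Benjamini-Hochberg adjustment and a threshold of 0.05. Each gene's offset between control sets was subtracted, equal-numbered controls and PAX5 arrays 2 and 3 were averaged, and 8 samples in 3 groups left 5 residual and 3.53 prior degrees of freedom. The script was tested on simulated data. Promoter windows were searched and figures drawn in Python 3.11.15 (pandas 2.3.3, matplotlib 3.10.9).

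The members, gene lists, design and alternatives were chosen with earlier results of these data known. Named members were those past the threshold, the 5 highest and 5 lowest changes of each comparison, members reading unlike between sets, paralogs with their parent genes, stalk proteins, Rpl5, Rpl11, Rps19, Rps6, Rpsa, and the brightest and dimmest. By this rule Rpl6, Rps20 and Rps28 also belong, with changes of -0.046, 0.020 and 0.0054 for EBF1 and -0.017, 0.046 and 0.042 for PAX5. Genes outside the members were named after their values were seen. Replicate numbers in the labels are shared between groups: deviations from the group means of equal-numbered control and factor arrays correlated at 0.345 to 0.608 for EBF1 and 0.194 to 0.411 for PAX5 over 12889 probe sets, each above 0.1. The fit described above had group as its only factor and did not use this pairing. A replicate block, which pairs arrays of equal number within a set, therefore entered as an alternative only. Other alternatives were the pseudocount, normalization, probe set choice, a level filter, counting all arrays, and leaving out each replicate. Protein sequences were not used here.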

Additional observations from a re-analysis of the deposited data

How the results depend on the processing

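Limma called 0 members with EBF1, with PAX5 and for their difference under every alternative run: pseudocounts of 1 and 64, quantile normalization, centring, the mean of a gene's probe sets, a level filter, 12 arrays counted separately, the trend option, and each replicate left out. With the replicate block, where PAX5 arrays 2 and 3 were counted separately, it also called 0 members with EBF1 and 0 with PAX5. With the block it called 5 of all 18193 genes with EBF1 and 251 with PAX5, so 0 calls among 49 members says little about the block. The members' median change with EBF1 was -0.048 when arrays were centred on their median and ran from -0.011 to 0.00055 with 1 replicate left out. With PAX5 it ran from -0.027 to -0.0051 with 1 replicate left out, the last without PAX5 replicate 3, and the cause was not tested. Of the changes of 28 named members under these alternatives, 1396 kept their direction and 79, none of them called, took the other sign. Readings near the floor of the scale limit the changes that can be seen, and whether readings near its top do so was not tested. Having 2 PAX5 samples limits that comparison.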
